A study of Mus musculus with 2 samples.

Results

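Creatine kinase and myoglobin genes encode the energy transfer and oxygen storage system of muscle and its relatives in other tissues. The 10 genes described here were taken by name from 21887 protein-coding genes. They are Ckm, Ckmt2, Ckb, Ckmt1, Ak1, Slc6a8, Gamt, Gatm, Mb and Cygb. For each gene, peaks were counted over its span on mm10 and 5000 bp on either side, called the window here. Chromatin immunoprecipitation with sequencing (ChIP-seq) for H3R17me2a, asymmetric dimethylation of an arginine of histone H3, gave 1 peak list for each of 2 samples. A peak is a stretch where immunoprecipitated DNA piles up above background. Both samples form 1 group of wild-type mice whose hearts were taken at P21, that is 21 days after birth, although the sample titles name carm1 and the series design speaks of neonatal hearts. Carm1 is the arginine methyltransferase of the series title, and no other genotype, treatment or control was analysed here.

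Frozen heart tissue is given by the tissue label and the protocol, but the source label reads cardiac fibroblast. Of 10 cardiomyocyte marker genes, 10 had a peak shared by both lists in their window, and the median share of the window under peaks was 48.6% in list 1 and 56.6% in list 2. Of 10 fibroblast markers 1 had a shared peak, with a median of 0 in both lists. Shared peaks were found at 1 of 7 endothelial, 1 of 7 immune, 2 of 6 mural, 2 of 7 neuronal and 1 of 6 erythroid markers. Over all protein-coding genes 48.7% had one. The shared peaks at the fibroblast marker Ddr2 and the immune marker Cd68 lay in the flank and not in the gene span. In tissue, more cells with the mark and more of the mark per cell cannot be told apart.

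Creatine kinases move a phosphate group between ATP and creatine and so carry energy from mitochondria to the contractile filaments and ion pumps. A cytosolic and a mitochondrial form exist in striated muscle (Ckm and Ckmt2), and another pair serves brain and many other tissues (Ckb and Ckmt1). Creatine is made by Gatm and Gamt, chiefly outside the heart, and enters cells through the transporter Slc6a8. Myoglobin (Mb) stores oxygen in heart and red skeletal muscle, whereas cytoglobin (Cygb) is a relative found in fibroblast-like cells of many organs.

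List 1 held 21496 peaks and list 2 held 38012, with median widths of 460 and 459 bp. The weakest peak of list 1 had a deposited −log10 p of 5.0 and that of list 2 one of 2.01, so their thresholds differed. ChIP reads at a summit, the highest point of a peak, could be recovered from the deposited fold and p-value. In 42.1% of 20978 overlapping pairs of peaks both summits lay on the same base, and in 883 such pairs the recovered reads differed by a median of 1. The SD of that difference in units of its Poisson counting error was 0.268, where independent counts would give 1. The check covers only pairs with the same summit base, and the scale of the list 2 reads was set by presuming equal reads there. At these summits the samples differed by less than the sampling noise and were counted as 1 sample, and whether they are separate libraries cannot be told apart from these files. The lists are given side by side, and no replicate error or test can be given. A shared peak is a list 1 peak that overlaps a list 2 peak.

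H3R17me2a peaks covered more of the muscle form windows than of the brain and ubiquitous creatine kinase windows, where they were sparse or absent. Peaks covered 29.6% (list 1) and 42.7% (list 2) of the Ckm window. The shares were 32.0% and 32.7% at Mb, and 13.6% and 20.9% at Ckmt2. At the brain form Ckb the shares were 0 and 7.04%, and at the ubiquitous mitochondrial form Ckmt1 1.92% and 3.00%. Over all protein-coding genes the median was 0 in list 1 and 0.850% in list 2, and the 90th percentiles were 4.82% and 7.40%. The median over the 10 genes was 9.27% and 13.8%. It was 4.16% and 8.94% without peaks that overlap a neighbouring coding gene and not the member, and 7.66% in list 2 with peaks of a −log10 p of 5 or more. The values for all genes were not recomputed under these settings. At Mb 1 peak, whose summit lies outside the window, gave a large part of the share, which was 17.5% and 18.1% without it.

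A shared peak in the window was no rarity, and the members' count has to be read against that. Of the 10 genes, 7 had a shared peak in the window, against 48.7% of all protein-coding genes and 43.5% of the 15226 with a span no longer than that of Mb, the longest member. The genes without a shared peak were Ckb, Cygb and Gatm. A list 1 peak was found at 7 genes (49.3% of all genes) and a list 2 peak at 9 (59.3%). Inside the gene span itself a shared peak was found at 5 of 10 genes, near the 43% of all genes and the 36.8% of those no longer than Mb. Those 5 genes were Ckm, Ckmt2, Mb, Ak1 and Slc6a8. Against all genes, the muscle forms and Slc6a8 stood out by how much of the window was covered rather than by having a peak.

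**Figure D1:**
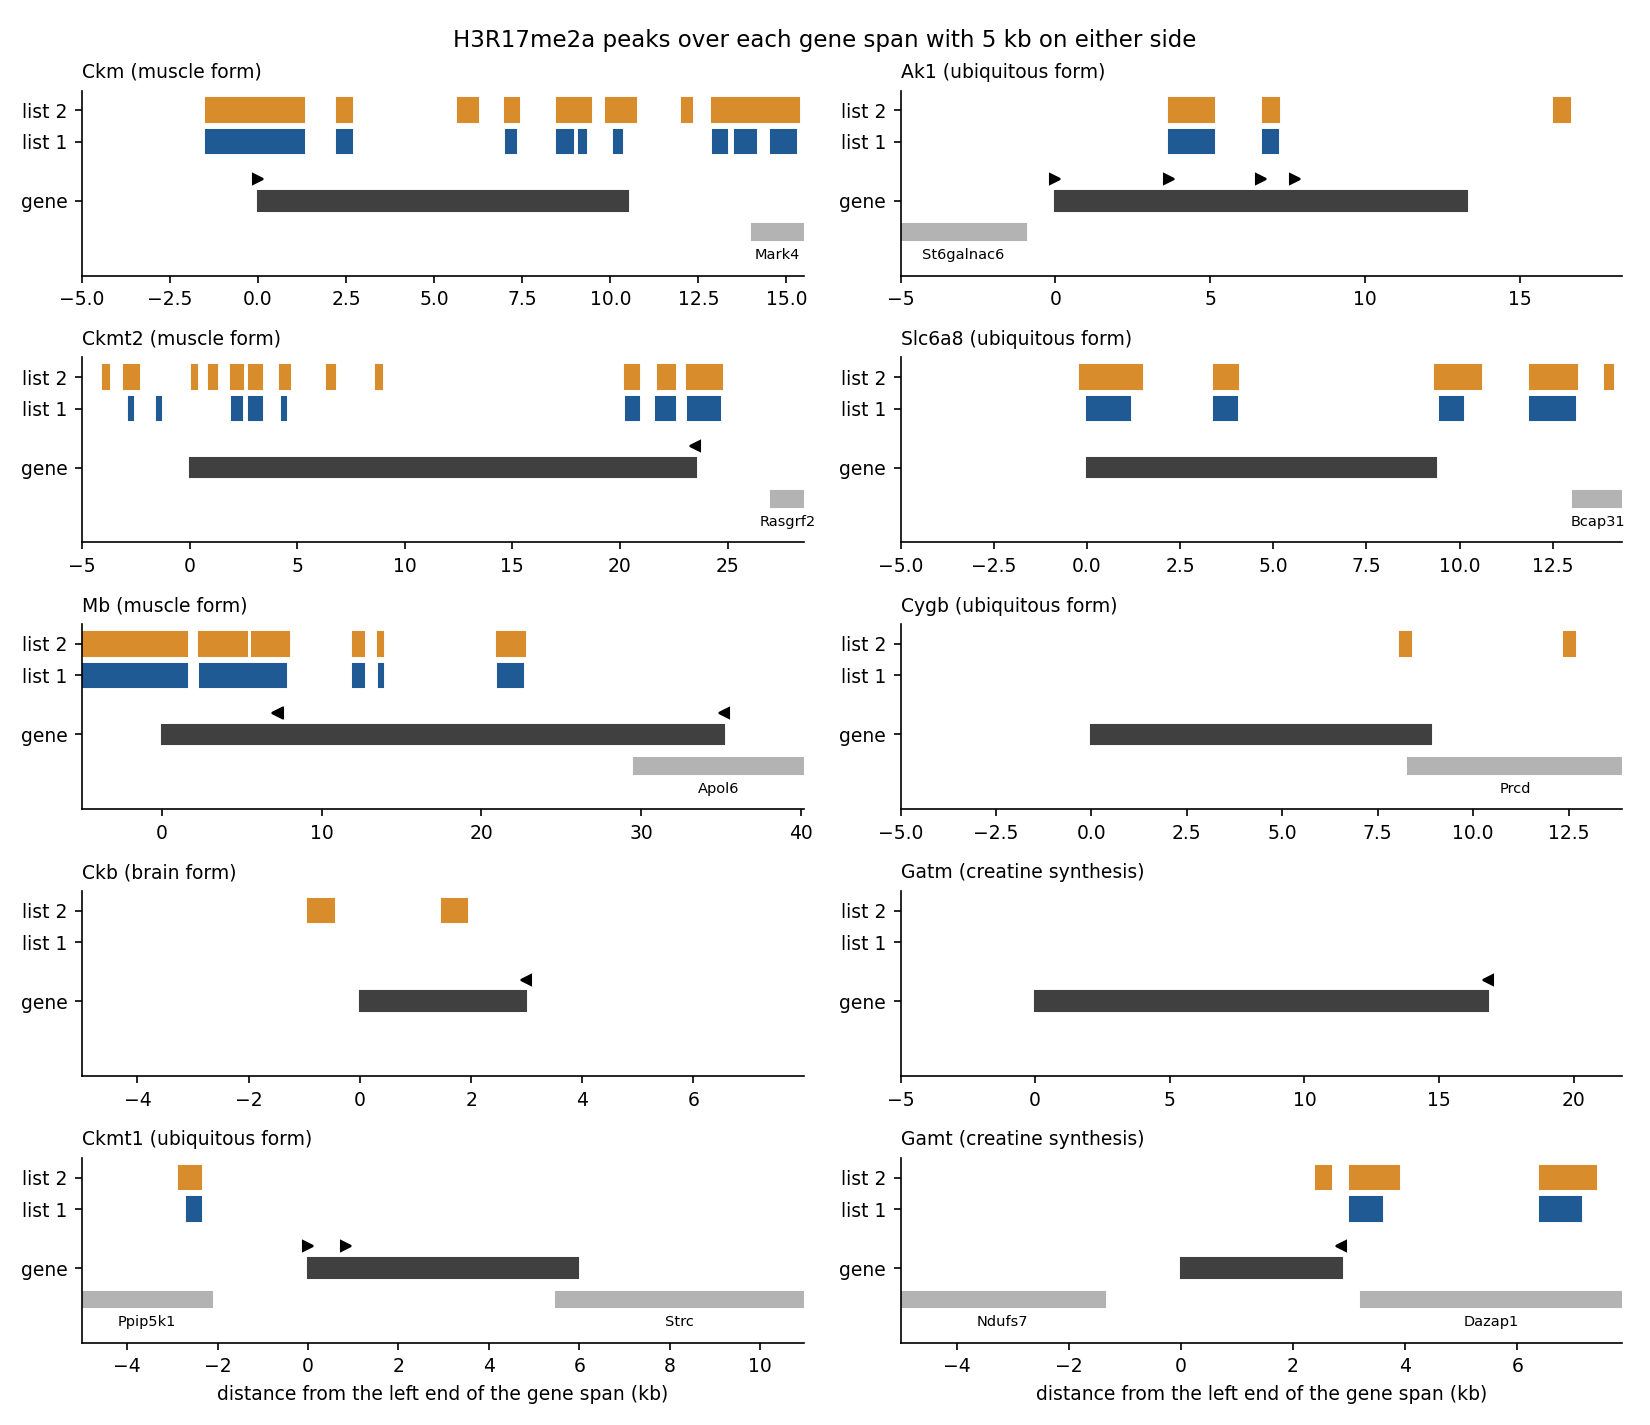
Maps of the 10 gene windows, with distance in kb from the left end of the gene span on the x axis. Blue and orange blocks are peaks of list 1 and list 2, the dark bar is the gene, black triangles are RefSeq starts where the table lists them and point along transcription, and grey bars are neighbouring protein-coding genes. Ckm, Ckmt2 and Mb hold several peaks in both lists, with long stretches free of peaks inside Ckmt2 and Mb, and Gatm has none.

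**Figure D2:**
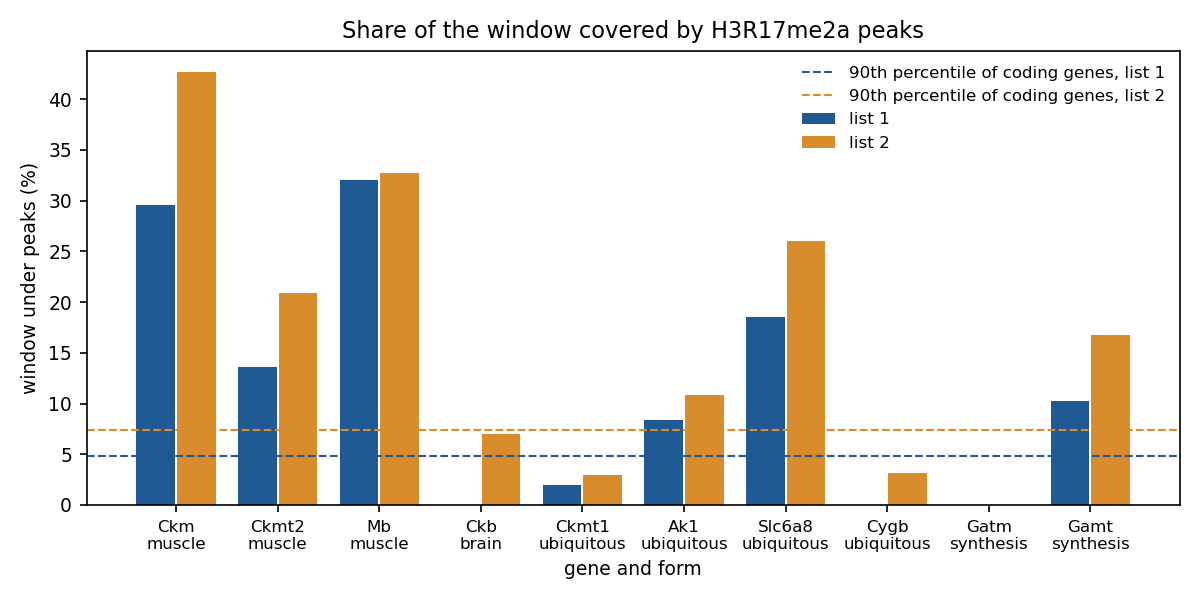
Share of each window under peaks in percent, for list 1 (blue) and list 2 (orange), with genes grouped by form. Dashed lines mark the 90th percentile of all protein-coding genes in each list, 4.82% and 7.40%, and Ckb, Ckmt1, Cygb and Gatm lie below the line of each list in that list.

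At each of the 3 muscle forms a start lay under peaks and at the brain form Ckb the start did not, and the sequences around these starts are shown for that reason. For Mb, 1 of its inner starts was taken, and its outer start, described with the gene, had no peak over it. Each runs from 250 bases before to 50 after a start of the RefSeq promoter table for GRCm38.p6, the assembly that mm10 shares on its primary chromosomes. They are Ckm at chr7:19410844-19411143 on the plus strand and Ckmt2 at chr13:91876836-91877135 on the minus strand. The others are Mb at chr15:77022738-77023037 and Ckb at chr12:111672289-111672588, both on the minus strand. Capitals mark matches on either strand to any of 7 short motifs, whose letters are given with their counts below the sequences.
Ckm: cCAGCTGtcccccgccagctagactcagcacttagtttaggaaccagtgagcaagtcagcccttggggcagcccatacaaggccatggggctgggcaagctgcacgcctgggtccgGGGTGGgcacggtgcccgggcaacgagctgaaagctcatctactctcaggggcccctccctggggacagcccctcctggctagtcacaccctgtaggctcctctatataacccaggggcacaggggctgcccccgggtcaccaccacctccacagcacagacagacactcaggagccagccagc
Ckmt2: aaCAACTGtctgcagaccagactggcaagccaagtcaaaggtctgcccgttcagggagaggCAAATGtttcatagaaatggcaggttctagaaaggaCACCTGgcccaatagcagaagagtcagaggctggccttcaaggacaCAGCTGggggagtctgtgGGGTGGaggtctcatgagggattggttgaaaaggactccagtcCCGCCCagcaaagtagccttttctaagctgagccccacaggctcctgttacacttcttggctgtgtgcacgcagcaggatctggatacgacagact
Mb: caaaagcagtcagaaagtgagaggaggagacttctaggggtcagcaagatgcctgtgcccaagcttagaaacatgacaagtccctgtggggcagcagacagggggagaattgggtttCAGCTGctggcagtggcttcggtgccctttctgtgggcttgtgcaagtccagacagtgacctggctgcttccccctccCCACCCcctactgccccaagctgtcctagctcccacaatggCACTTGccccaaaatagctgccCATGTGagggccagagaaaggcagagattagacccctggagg
Ckb: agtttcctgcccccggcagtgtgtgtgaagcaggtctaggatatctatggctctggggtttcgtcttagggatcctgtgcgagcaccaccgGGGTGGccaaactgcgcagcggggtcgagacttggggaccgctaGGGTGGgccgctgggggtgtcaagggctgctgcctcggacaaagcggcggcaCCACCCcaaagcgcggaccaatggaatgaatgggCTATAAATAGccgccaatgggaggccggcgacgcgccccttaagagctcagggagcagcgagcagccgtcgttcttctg
All 300 bases of the Ckm, Ckmt2 and Mb sequences lay under a peak in both lists, and 0 bases of the Ckb sequence did in either list. The muscle gene sequences shown held 7 CG dinucleotides at Ckm, 4 at Ckmt2 and 1 at Mb, the Ckb sequence held 22, and the median over 32851 promoters was 7. The wider set of starts leaned the same way by median CG count, 4 with a shared peak within 500 bp and 9 without. These starts are not all separate, since some belong to the same gene. Both inner Mb starts, whose sequences overlap, are counted among the marked ones with CG counts of 1 and 2. The ranges of both sets also overlapped. Over the 7 member starts with a shared peak within 500 bp the CG count ran from 1 to 14, with 14 at Gamt and 10 at the Ak1 start 32625437. Over the 7 starts without one it ran from 2 to 22, with 22 also at Gatm, 9 at the outer Mb start, 4 and 10 at Ckmt1 and 6 and 2 at Ak1.

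Among the 4 sequences shown, Ckb was the one without an E-box and the one with matches to MEF2 and to the exact letters TATAAA. It is also the only unmarked start of the 4. The E-box (CANNTG), bound by muscle and many other basic helix-loop-helix factors, was found once at Ckm, 4 times at Ckmt2, 3 times at Mb and 0 times at Ckb, and 72.3% of all promoters hold one. Of all 14 member starts, the E-box was found at 7 of the 7 with a shared peak within 500 bp and at 5 of the 7 without, among them the outer Mb start with 2 matches. Both inner Mb starts are among the marked ones, and their sequences overlap and share E-box matches, so they are not separate sites. The CACC box (CCACCC) had 1 match at each muscle gene and 3 at Ckb, and 31.5% of promoters hold it. The MEF2 motif, named for a family of muscle transcription factors and held by 3.19% of promoters, matched once at Ckb and not at the other 3, but it also matched once at the marked Ak1 start 32625437. The Ckb match covers the only exact TATAAA of the 4 sequences, the letters searched as TATA box, so these letters are counted under both names. Of all promoters 13.6% hold TATAAA. The Ckm sequence holds the letters tatataa before its start, which this search does not count, so a TATA box is not said to be absent there. Ckmt2 also had 1 GC box (GGGCGG), which 35.7% of promoters hold. Neither the CArG box of serum response factor (1.63% of promoters) nor the element AAGGTCA of estrogen-related receptors (4.72%) was found in any of the 4 sequences. All motifs were searched on both strands. A match is a description of the letters and not of binding.

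Ckm, the cytosolic creatine kinase of muscle (chromosome 7, 19411094 to 19421583), had the highest mean share over both lists. Its window held 9 list 1 peaks, all of them shared, and 8 list 2 peaks. Only 1.1% of protein-coding genes had as many shared peaks, and 0.384% had as high a covered share in list 1 and 0.270% in list 2. The widest Ckm peak lay over the start and measured 2763 bp in list 1 (19409630 to 19412392) and 2783 bp in list 2. It reached 1464 bp upstream and 1298 bp downstream of the start in list 1, and its summit was at -17 bp in both lists. The authors' folds there were 5.11 and 4.60, from 45 and 43 recovered reads.

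Further peaks followed along the Ckm gene to its far end. In list 1 they had summits 2465, 7090, 8894, 9234 and 10277 bp downstream of the start, with folds of 3.60 to 4.59 and 10 to 27 reads. List 2 had an additional peak in the gene with its summit 5799 bp downstream (fold 3.55). The peaks in the last part of Ckm also overlapped the long non-coding gene A930016O22Rik inside it. The highest fold of the window, 8.34 in list 1 and 7.77 in list 2, was at a summit 15008 bp downstream of the start, in the neighbouring kinase gene Mark4. With peaks that overlap a neighbouring coding gene and not Ckm left out, 7 shared peaks were left and the covered shares were 23.2% and 30.6%.

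Ckmt2, the mitochondrial creatine kinase of striated muscle (chromosome 13, 91853386 to 91876923), carried its strongest peaks near the start. Its window held 8 peaks in list 1, of which 7 were shared, and 12 in list 2. The peak over the start was 1471 bp wide in list 1 and 1672 bp in list 2, with folds of 9.28 and 5.53 and 52 reads in each. A narrower peak of 633 and 646 bp stood 2973 bp downstream of the start. Its folds were 17.96 and 10.3 from 56 reads in each list, the highest of all peaks in the 10 windows. Within their lists only 0.428% and 2.47% of peaks had as high a fold.

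Between them lay a peak with summits 1567 and 1597 bp downstream, with 32 and 31 reads and folds of 4.13 and 2.52. A second run of peaks lay at the far end of Ckmt2, 19151 to 26196 bp downstream of the start by their shared summits. These had 11 to 15 reads in list 1 and folds of 4.10 to 6.12. When peaks of each list below a −log10 p of 5 were dropped, 2 of the 7 shared Ckmt2 peaks were left, those at the start and 2973 bp inside, and list 2 covered 7.57% of the window. The 4 shared peaks of the far run kept a −log10 p of 7.10 to 10.3 in list 1, so what rests on list 2 peaks below that threshold is that they are shared.

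Mb, the oxygen store of cardiac muscle (chromosome 15, 77015487 to 77050668), had the widest peaks of the 10 genes. RefSeq lists 3 starts for it on the minus strand, at 77050668, 77022787 and 77022727. A list 1 peak of 5419 bp (77017849 to 77023267) covered both inner starts and part of the gene body beyond them, and 0.0791% of list 1 peaks were as wide. In list 2 this stretch was split into peaks of 2993 and 2353 bp. The summit at the inner starts was 51 bp downstream of the start at 77022727 in both lists, with 163 and 164 reads and folds of 5.29 and 5.12. No shared peak lay within 500 bp of the outer start, which is inside the neighbouring apolipoprotein L gene Apol6.

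The widest Mb peak ran over the 3′ end of the gene and on past the edge of the window. It measured 8300 bp in list 1 (77008744 to 77017043) and 10289 bp in list 2 (77006787 to 77017075), with folds of 8.55 and 4.93. Only 0.0233% and 0.0158% of the peaks of these lists were as wide. Its summit lay on the same base, 77008998, in both lists, with 93 and 94 reads. That base is inside the long non-coding gene Gm52199 and outside the window, so the peak cannot be assigned to Mb alone. Without it, a setting added after the values were seen, Mb had covered shares of 17.5% and 18.1%, below the 18.6% and 26.0% of the creatine transporter gene Slc6a8. Smaller shared peaks stood upstream of the inner starts, with summits at -4849 and -6378 bp relative to 77022787 (folds of 7.53 and 5.31 in list 1, 5.53 and 3.19 in list 2). Another of 1545 and 1800 bp lay 12903 bp downstream of the outer start, with 47 reads in each list. All 5 Mb peaks of list 1 had their summit on the same base as a list 2 peak.

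Ckb, the cytosolic creatine kinase of brain and many other tissues (chromosome 12, 111669355 to 111672338), had no peak in list 1. List 2 held 2 peaks in its window, of 470 and 444 bp, with folds of 2.41 and 2.96 and 14 and 12 reads. Their −log10 q values of 0.156 and 0.756 lie on the side of a q above 0.05. The nearest shared peak stood 5575 bp from the Ckb span, at the tRNA methyltransferase gene Trmt61a, with a fold of 2.62 in list 1. Ckmt1, the ubiquitous mitochondrial form (chromosome 2, 121357773 to 121363737), had 1 peak in each list and none inside its span. That shared peak of 307 and 479 bp overlapped the neighbouring gene Ppip5k1, 2368 bp from Ckmt1 in list 1. Its fold in list 1 was 1.61, and 99.6% of list 1 peaks had as high a fold or higher, although 110 reads were recovered at its summit. The recovered background there was 68.0 reads in list 1. In list 2 the peak had a fold of 2.95, and 72.4% of list 2 peaks had as high a fold or higher. Its −log10 p in list 2 was 14.0, and 16.0% of list 2 peaks had as high a value or higher. Neither of the 2 starts listed for Ckmt1 had a shared peak within 500 bp.

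Slc6a8, the creatine transporter (chromosome X, 73673133 to 73682502), was covered over its full window to a degree within the range of the muscle forms. Its share was 18.6% in list 1 and 26.0% in list 2, between those of Ckmt2 and Mb in each list, and above Mb in both without the Mb peak whose summit lies outside the window. It had 4 peaks in list 1, all shared, and 5 in list 2. The widest peak of list 2 (1663 bp) and its list 1 partner (1144 bp) lay at the left end of the gene and had 66 and 62 reads with folds of 2.46 and 3.32. They also overlapped the long non-coding gene Gm32261. The highest fold was at a peak inside the gene, 7.0 in list 1 and 4.74 in list 2. A peak of 1219 and 1265 bp at the far edge of the window overlapped Bcap31, a gene of the endoplasmic reticulum. List 2 had another peak over Bcap31, of 219 bp. Without these Bcap31 peaks the covered shares of Slc6a8 were 12.3% and 18.4%. With neighbours' peaks left out at all genes, this was below each of the 3 muscle forms in both lists. The lowest of them, Ckmt2, kept 13.6% and 20.9%.

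The enzymes that make creatine differed from the transporter. Gatm, which forms guanidinoacetate from arginine and glycine (chromosome 2, 122594473 to 122611277), had no peak in either list. The nearest shared peak was 19374 bp away, at Spata5l1. Gamt, which methylates guanidinoacetate to creatine (chromosome 10, 80258151 to 80261025), had 2 shared peaks in its window and none inside its span. Both overlapped the neighbouring gene Dazap1, which begins 337 bp from Gamt. The nearer peak (574 and 888 bp, folds of 3.43 and 2.74) lay upstream of the Gamt start, with summits at -515 and -516 bp. The farther one had 85 reads in each list and folds of 5.38 and 4.12. With such peaks left out, Gamt kept no shared peak, and its covered shares were 0 and 2.11%, so the 10.2% and 16.8% of the full window cannot be assigned to Gamt.

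Ak1, the cytosolic adenylate kinase that regenerates ATP and AMP from ADP (chromosome 2, 32621758 to 32635058), was marked at inner starts. RefSeq lists 4 starts for it on the plus strand. A shared peak of 1460 bp in list 1 and 1467 bp in list 2 covered the start at 32625437, with folds of 3.33 and 3.74 and 69 and 71 reads. A second of 480 and 518 bp had its summit 335 and 337 bp downstream of the start at 32628390, with folds of 6.60 and 5.12. The outermost start at 32621758 and the start at 32629500 had no shared peak within 500 bp. Peaks covered 8.33% and 10.8% of the window, above the 90th percentile of all genes in both lists.

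Cygb (chromosome 11, 116645595 to 116654504), the globin relative of Mb, had no list 1 peak. In list 2 it had 2 peaks of 280 and 309 bp, which covered 3.11% of the window. Both overlapped the neighbouring gene Prcd, and the first also reached into Cygb. The second, in the flank, had a fold of 4.99 and a −log10 p of 18.1 from 71 reads, above the lowest −log10 p of list 1, although that list holds no peak there. The nearest shared peak was 16730 bp from the Cygb span. The globins thus differed in the covered share, with 32.0% at Mb (17.5% without its widest peak) and 0 at Cygb in list 1.

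Starts could be compared in the 8 members that the promoter table lists. A shared peak within 500 bp of a listed start was found at 5 of them, Ckm, Ckmt2, Mb, Ak1 and Gamt, against 39.7% of 17492 protein-coding genes with a listed start. Ckb, Ckmt1 and Gatm had none. At Mb and Ak1 the marked starts were inner ones. At a −log10 p of 5 or more in each list the Gamt start was lost, which left 4.

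**Figure D3:**
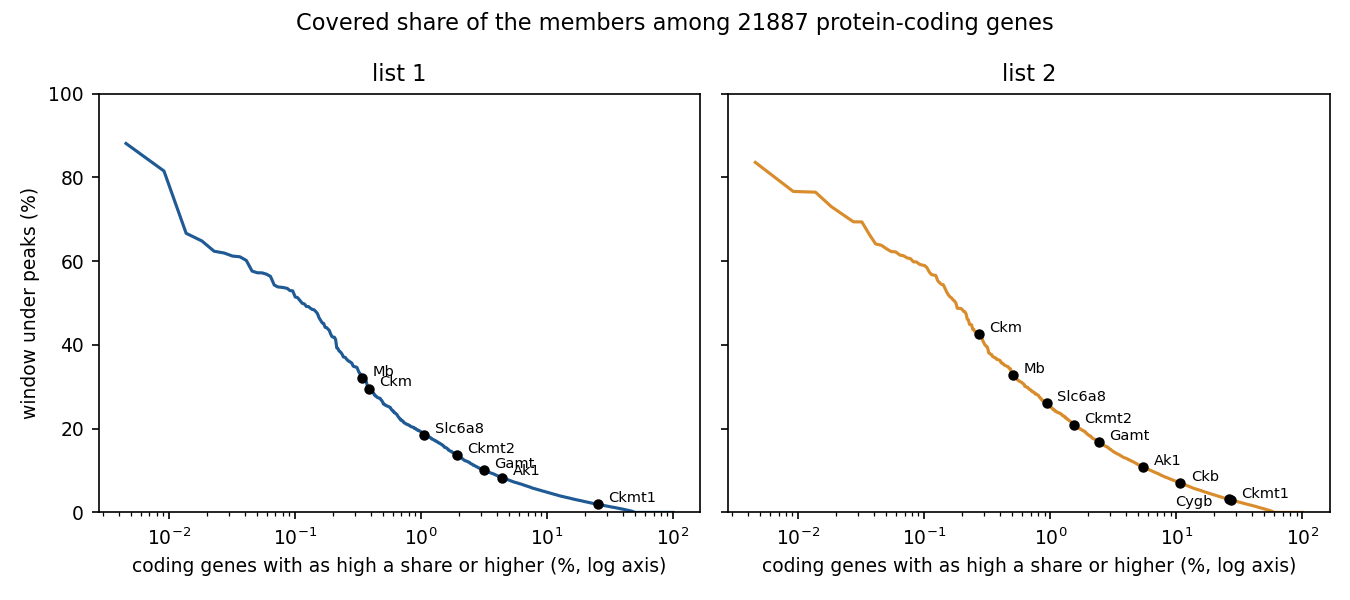
Covered share of the window in percent against the percent of 21887 protein-coding genes with as high a share or higher (log axis), for each list. Lines are all genes and points the members with a share above 0, and Mb and Ckm lie within the top 0.51% of genes in both lists.

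Set side by side, the 3 muscle forms held most of the covered sequence. Their windows had 22 of the 31 list 1 peaks and 26 of the 42 list 2 peaks, and 77.8% and 72.3% of all covered bases in the 10 windows. Pooled over the 3 windows, 25.3% of the bases lay under list 1 peaks and 30.8% under list 2 peaks. Without the Mb peak whose summit lies outside its window, these shares were 18.7% and 24.1%, and the muscle forms held 72.1% and 67.2% of all covered bases. In the 4 ubiquitous forms (Ckmt1, Ak1, Slc6a8 and Cygb) the pooled shares were 7.54% and 11.1%, most of it at Slc6a8. In the 2 synthesis genes they were 3.31% and 5.44%. The order within the cytosolic pair (Ckm above Ckb), the mitochondrial pair (Ckmt2 above Ckmt1) and the globin pair (Mb above Cygb) was the same in both lists. With groups of 1 to 4 genes in 1 sample, no test of these differences was made.

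The widest member peaks were not those with the highest folds. The median width was 522 bp in list 1 and 644 bp in list 2 at the muscle forms, and 618 and 540 bp at the ubiquitous forms. Narrow and wide peaks both occurred at the muscle genes, from 182 to 8300 bp in list 1. The highest fold, at Ckmt2, came from a peak of 633 bp, and the widest peak, at Mb, had a fold of 8.55. Of the 31 list 1 peaks, 15 had their summit on the same base as a list 2 peak. Of the same 31 peaks 30 were shared, near the 97.1% of all list 1 peaks. The exception was a Ckmt2 peak of 191 bp downstream of the gene, with a fold of 3.67. Of the 42 list 2 peaks, 28 were shared and 30 had a q under 0.05. Over all list 2 peaks 52.2% were shared, and 38.1% had a q of 0.05 or above.

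**Figure D4:**
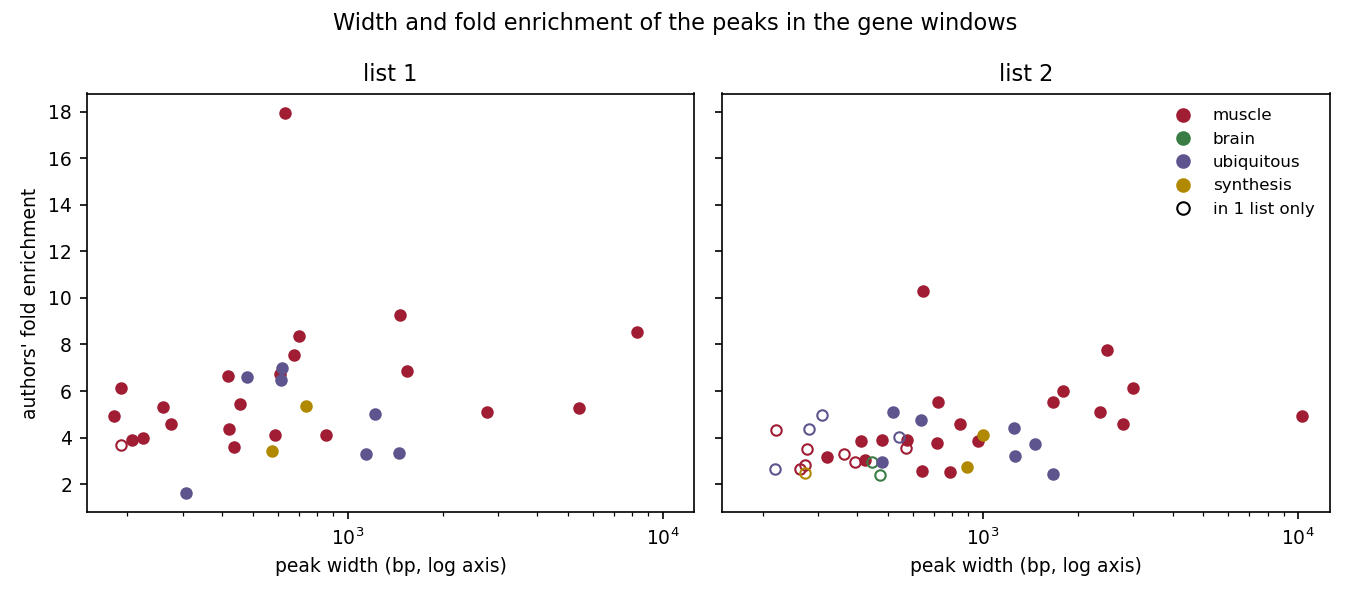
The authors' fold enrichment against peak width in bp (log axis) for every peak in the 10 windows, by list and coloured by form. Open circles are peaks found in 1 list only, which in list 2 have folds of 4.99 or less, and the widest peaks of both lists belong to muscle forms.

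Other genes of energy transfer carried the mark often but mostly over little of their window. Of 33 further genes of adenine nucleotide and phosphate transfer, 25 had a shared peak (48.7% of all genes) and 3 had no peak in either list. The median covered share was 2.10% in list 1 and 4.50% in list 2. The most covered was Slc25a4, the ADP/ATP carrier of heart and muscle mitochondria, with 47.5% and 46.1%. Prkab1, a regulatory subunit of the energy sensor AMPK, followed with 10.7% and 13.2%, and the nucleoside diphosphate kinase gene Nme3 with 10.3% and 12.5%. Ampd1, the AMP deaminase of skeletal muscle, and Nme4 had no peak in either list. Only Slc25a4 exceeded Ckm and Mb in list 1.

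Among 16 globin and oxygen-sensing genes 7 had a shared peak, near the 48.7% of all genes, and 9 had no peak in either list. The latter were the 7 haemoglobin genes, neuroglobin (Ngb) and androglobin (Adgb). Hba-a1 and Hba-a2 are near-identical copies, and no source used here says how the authors treated reads that fit more than 1 place. The most covered was Egln1, an oxygen-sensing prolyl hydroxylase, with 18.7% and 26.5%. Its relative Egln3 had 3.21% and 10.2%, and Hif1a, the transcription factor these enzymes control, 4.14% and 8.0%.

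Among the genes whose pair of covered shares was closest to that of Ckm were Pln and Nkx2-5. Closeness was the distance between the pairs of percentages over both lists, which stem from 1 sample. Pln, the calcium pump inhibitor phospholamban, had 28.5% and 43.1%. The cardiac transcription factor gene Nkx2-5 had 27.8% and 41.5%.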

How the data were processed

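H3R17me2a ChIP-seq peak lists of 2 samples were analysed. Per the submitters' processing notes, reads went through FastQC and Bowtie2 with mm10. No source used here gives the peak caller, its control or its filters. The lists have no header and follow the 10-column narrow peak layout. The authors' fold is a linear ratio of ChIP over background. Each p-value and q-value was deposited as its −log10, and the authors' score is that −log10 p times 10. Replicates were not pooled here, and the labels do not say whether they came from separate animals.

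Spans came from the RefSeq table for GRCm38.p6 (chromosomes 1 to 19, X and Y). All 10 members matched by symbol. Overlap meant at least 1 bp, and a covered share is the percent of window bases under peaks (Python 3.11.15, numpy 2.4.6, pandas 2.3.3). Windows, coverage and read recovery were tested on simulated data.

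ChIP reads at a summit were the whole number that reproduces both the fold, as (reads + 1) / (background + 1), and the Poisson tail p. In list 2 the reads were first multiplied by 0.618, a factor scanned on pairs with the same summit base by presuming equal reads, so the closeness of the lists rests partly on it. The p was reproduced within 0.001 in 99.95% of 2150 list 1 peaks and 99.8% of 3802 list 2 peaks checked. Total read depth is unknown, and reads cover counting error only.

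Members, forms, gene lists and motifs were chosen with earlier results of these data known. Named list genes are the 3 most covered with a shared peak and the first 2 by alphabet without a peak. Of the 3 genes closest to Ckm in covered share, 1 is not reported here. No test was planned or made, since there is 1 group. Alternatives changed the flank, the thresholds, the overlap, the neighbours' peaks and the list used. Another, leaving out peaks with their summit outside the window, was chosen after seeing the data.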

Additional observations from a re-analysis of the deposited data

How the results depend on the processing

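All 3 muscle forms kept a shared peak under each of the 12 alternatives. The count of members with a shared peak, 7, was 5 with the gene span alone or without peaks of neighbouring coding genes, 6 with a flank of 1000 bp or in the upper 50% of peaks by fold (without Ckmt1 in both), and 8 with a flank of 10000 bp, which adds Ckb. List 1 alone gave 7 members and list 2 alone 9, which adds Ckb and Cygb. The count over starts stayed at 4 or 5 where it was recomputed, with changed thresholds, fold, list length, overlap or list used. It was not recomputed without neighbours' peaks, so the peak over Dazap1 near the Gamt start was not put to that setting. Of 120 recomputed peak counts per gene, 98 were within 1.5 times the main count. A count that stayed at 0, in all or most settings at Gatm, Cygb and Ckb, was scored as within by rule. The settings with 1 list counted all peaks of that list and not shared peaks. The median covered share moved more. In list 1 (9.27%) it was 6.55% over the gene span, 12.2% and 8.16% with flanks of 1000 and 10000 bp, 3.90% in the upper 50% by fold and 4.16% without neighbours' peaks. In list 2 (13.8%) these were 14.9%, 20.6%, 11.9%, 8.76% and 8.94%. List 2 gave 7.66% at a common −log10 p of 5 and also at a −log10 q of 2, and 12.7% when trimmed to the length of list 1. Smaller windows and fewer peaks enter by construction. Leaving out peaks with their summit outside the window, added after seeing the data, moved neither median, and of the 10 genes it changed the covered share of Mb alone. No paired analysis was possible because there is 1 group. Peaks of 10 to 15 reads limit what can be said of the weaker sites.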

Other observations

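Isoform families outside the creatine and myoglobin genes showed no single order of the covered share between forms known from muscle and other forms. The families were chosen after their values were seen, and the values are of 1 sample without a test. Of the ADP/ATP carriers, Slc25a4 of heart and muscle had 47.5% of its window under list 1 peaks and 46.1% under list 2 peaks. Slc25a5, a carrier of many tissues, had 5.04% and 6.99%, and Slc25a31, known from the testis, had no peak in either list. Of the catalytic subunits of AMPK, Prkaa2, abundant in muscle, had shares of 6.34% and 9.25%, and Prkaa1 had no list 1 peak and 2.82% in list 2. Among other AMPK subunits and the AMP deaminases, some pairs had the opposite order. Prkab2, abundant in muscle, had 2.53% and 4.20%, against 10.7% and 13.2% at Prkab1. Prkag3, known from skeletal muscle, had 1.31% and 5.71%, against 4.73% and 9.24% at Prkag1 and 3.05% and 5.48% at Prkag2. Prkag3 was thus below Prkag1 in both lists, but below Prkag2 in list 1 only. Ampd1 of skeletal muscle had no peak in either list, and Ampd3 had 4.48% and 8.47%. Ampd2 had no list 1 peak and 2.72% in list 2.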
